A study of Mus musculus with 47 samples.

Results

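The data are read counts of single NPY-positive neurons, and the results concern the genes of the synaptic vesicle release machinery. The 72 release genes are all genes of the count table whose symbol belongs to one of 11 groups: synaptotagmins, SV2 proteins, complexins, Munc13 proteins (Unc13), RIM proteins, Rab3 GTPases, VAMPs, synapsins, syntaxins, syntaxin-binding proteins, and the SNAP genes Snap25, Snap29, Snap47 and Snap91. They were chosen by name, from 22800 genes in all. Of these 72 genes, 66 had a read in the auditory cortex (AC) or CA3 cells used here.

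A synaptic vesicle is tethered and primed at the active zone by RIM and Munc13 proteins, with Rab3 on the vesicle. Fusion is carried out by a SNARE complex of a VAMP on the vesicle and a syntaxin and SNAP25 on the plasma membrane. Complexins bind the assembled SNAREs, and synaptotagmins are the calcium sensors that trigger fusion. SV2 proteins are membrane glycoproteins of the vesicle, and synapsins hold vesicles in the reserve pool. Neurogliaform cells, the main NPY-positive interneurons of superficial neocortex and of the hippocampal stratum lacunosum-moleculare, are known for dense axons that release GABA into the surrounding volume.

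Cytosol was aspirated through the patch pipette from cells of NPY-hrGFP mice of either sex, aged 3 to 8 weeks, in which a green fluorescent protein is expressed under the Npy promoter; GEO's design text names the mice NPY-EGFP. Cells of AC came from layers 1 and 2 in coronal slices, and cells of CA3 from the stratum lacunosum-moleculare in horizontal slices, with no drug treatment named for either. The comparison uses 10 AC and 13 CA3 cells, with 3 CA1 cells given beside them. These are the columns that an earlier analysis of the table matched by value to the cells drawn in the study, so they are a selected part of the 20 AC and 21 CA3 columns, with fewer CA3 cells than passed the quality control of the study. Values over all labelled cells, 19 in AC (a pair of near-identical columns, N4 and N4X, was averaged) and 21 in CA3, are given beside some of the results. Many of the cells added in that set had no read of the GABAergic marker Gad1. The labels tie no cell to one of the 8 mice, so each region counts as 1 sample, no test was possible and every difference below is a description of these cells. The slice plane and the region cannot be told apart.

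The AC cells held 1715012 to 6265431 reads, the CA3 cells 2229519 to 7949918 and the CA1 cells 601781 to 3202430. All 26 cells held reads of the GABAergic marker list (4928 CPM or more), where CPM is reads per 1000000 reads on genes in that cell. Astrocyte, oligodendrocyte or microglia lists exceeded 1000 CPM in 3 AC cells (N4, N42 and N46) in 2 CA3 cells (N27 and N39) and in 1 CA1 cell (N1, astrocyte list at 1683 CPM). Their part in the results was not tested, and counts without the 5 AC and CA3 cells are given beside the main ones. Pyramidal cell markers stayed at or below 204 CPM in every cell.

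Promoters of 3 members are shown here because Sv2c and Cplx3 had the largest differences towards AC, and Rab3b the largest towards CA3 among the Rab3 genes. Each is the 250 bases before the RefSeq transcription start in GRCm38.p6, written 5′ to 3′ on the strand of the gene. Capitals mark a GC box (GGGCGG) in Sv2c and Rab3b, an E-box (CACGTG) in Cplx3 and the TATA box (TATAAA) in Rab3b, each searched on both strands. They lie at chr13:96132578-96132827 (minus strand), chr9:57606282-57606531 (minus strand) and chr4:108878820-108879069 (plus strand).
Sv2c: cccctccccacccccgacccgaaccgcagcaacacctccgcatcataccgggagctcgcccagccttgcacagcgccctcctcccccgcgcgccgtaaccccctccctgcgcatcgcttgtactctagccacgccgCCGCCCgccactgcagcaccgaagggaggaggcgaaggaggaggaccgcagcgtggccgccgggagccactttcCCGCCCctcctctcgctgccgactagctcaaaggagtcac
Cplx3: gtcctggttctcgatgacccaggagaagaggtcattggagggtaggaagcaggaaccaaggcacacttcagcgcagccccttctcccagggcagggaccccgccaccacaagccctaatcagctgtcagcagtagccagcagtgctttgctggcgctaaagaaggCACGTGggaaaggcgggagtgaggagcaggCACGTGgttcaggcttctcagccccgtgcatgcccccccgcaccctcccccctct
Rab3b: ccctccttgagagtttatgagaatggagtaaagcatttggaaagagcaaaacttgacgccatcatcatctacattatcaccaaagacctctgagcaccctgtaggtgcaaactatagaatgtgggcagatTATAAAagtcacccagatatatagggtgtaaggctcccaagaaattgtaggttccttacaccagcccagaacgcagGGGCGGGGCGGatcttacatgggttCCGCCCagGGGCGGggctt

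The Sv2c window held 2 GC boxes and no E-box, and the Cplx3 window 2 E-boxes and no GC box. The Rab3b window held 1 TATA box and 4 GC boxes, of which the first pair overlap. Over the release genes, 54 matched the RefSeq promoter table by symbol, with 70 promoters among them. A GC box was in 61.4% of these 70 windows and in 32.7% of all 32851 windows of the same length. An E-box was in 12.9% against 6.02%, a TATA box in 7.14% against 12.4%, and a cyclic AMP response element (TGACGTCA) in 1.43% against 1.55%. The median GC content was 60.6% for the release genes and 52.4% for all promoters. A match says only that these letters are in the window.

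A level is the mean over cells of log2(normalised read count + 1), and a gene was called where the AC and CA3 levels differed by 1 or more. The call was made on genes that at least 10 of the 23 cells had read, which 41 release genes and 5964 genes in all passed. Of the 41, 10 were higher in AC (24.4%, against 16.6% of all genes), 14 were higher in CA3 (34.1%, against 46.9% of all genes) and 17 were not called. The median difference was −0.43 for the release genes and −0.84 for all 5964 genes past the filter, so their median gene was lower in AC. Relative to that median, 13 release genes were higher in AC and 11 in CA3, where 29.3% and 29.9% of all genes were. Without the 5 cells with glial reads, 11 were higher in AC and 19 in CA3, while 18.6% and 47.5% of all genes were. With reads summed over cells in place of a mean of logs, 9 were higher in AC and 5 in CA3, beside 19.3% and 23.1% of all genes. The split of the calls thus moved from 10 against 14 to 9 against 5 with this choice. The calls towards CA3 left by it were Rab3b, Stx12, Stx6, Syt16 and Syt4, and those towards AC that it ended included Stx18 (0.93), Stxbp5 (0.46), Syn2 (0.58) and Unc13a (0.90). Over all labelled cells the median of all genes was −1.22, against which the differences given for that set are to be read, and 6 of the 10 calls towards AC and 12 of the 14 towards CA3 were still calls. Those ended were Stx18, Syn1, Syn2 and Unc13a (0.56) in AC and Stx1a and Syt16 (−0.96) in CA3.

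**Figure D1:**
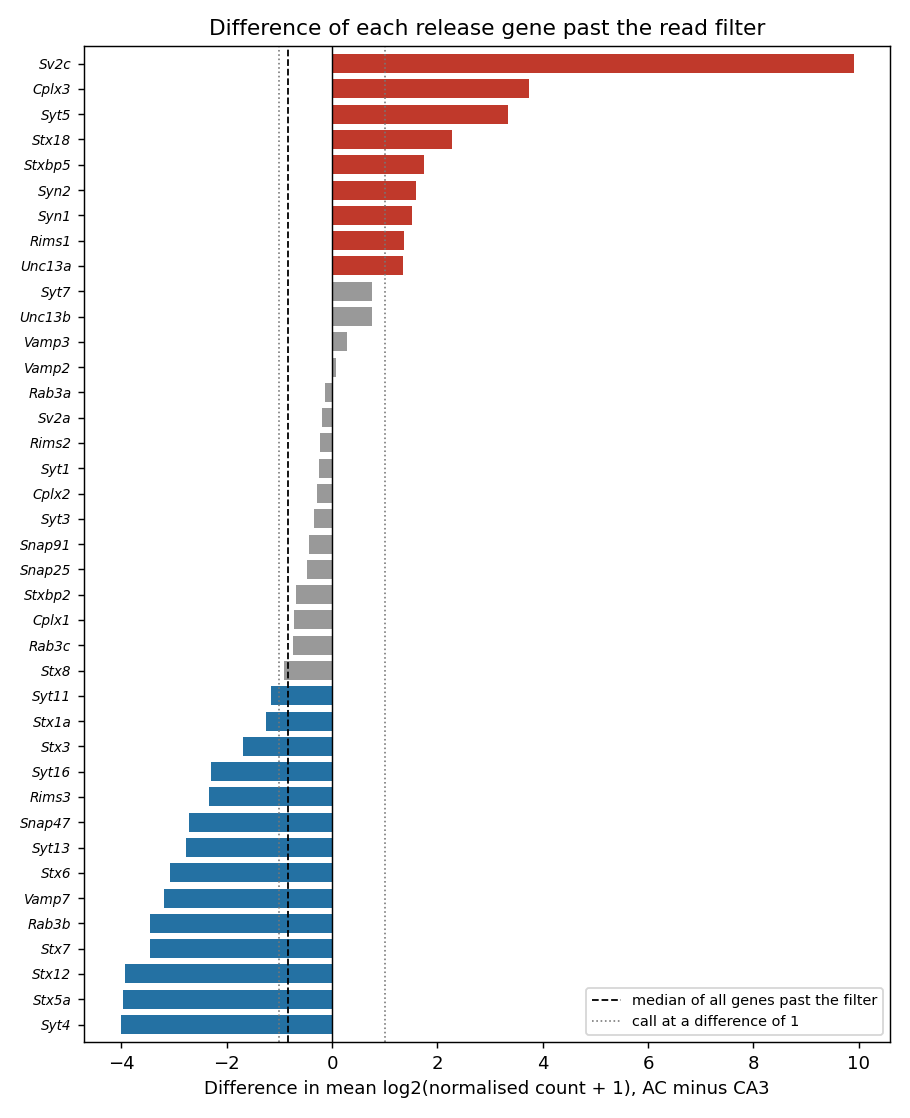
Difference in level (AC minus CA3, log2 scale) of 39 of the 41 release genes that at least 10 of 23 cells had read; red bars are higher in AC by 1 or more, blue bars higher in CA3 by 1 or more and grey bars not called. Sv2c stands at 9.91, and the dashed line marks the median of all genes, −0.84.

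The machinery as a whole took a like share of the reads in each region. Summed over the release genes, AC cells held 11104 to 26775 CPM (median 18892), CA3 cells 13428 to 24946 (median 18933) and CA1 cells 15702 to 21332. An AC cell had reads on 24 to 40 release genes (median 33), a CA3 cell on 29 to 43 (median 37) and a CA1 cell on 29 to 40 (median 35). As a share of all genes detected in a cell, the medians were alike, at 0.664% in AC, 0.650% in CA3 and 0.656% in CA1. After every cell was thinned to 1715012 reads the release genes read were 32.4 ± 4.67 in AC (SD, n = 10 cells) and 36 ± 4.69 in CA3 (SD, n = 13 cells), a gap below 1 SD. 8 release genes were read in all 26 cells, among them Cplx1, Rab3a, Snap25, Syn1, Syt1, Syt11 and Vamp2. 6 were read in none: Cplx4, Stx11, Syt2, Syt8, Syt9 and Syt15, for which 3 reads would be 0.0881 CPM summed over AC and 0.0614 over CA3.

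**Figure D2:**
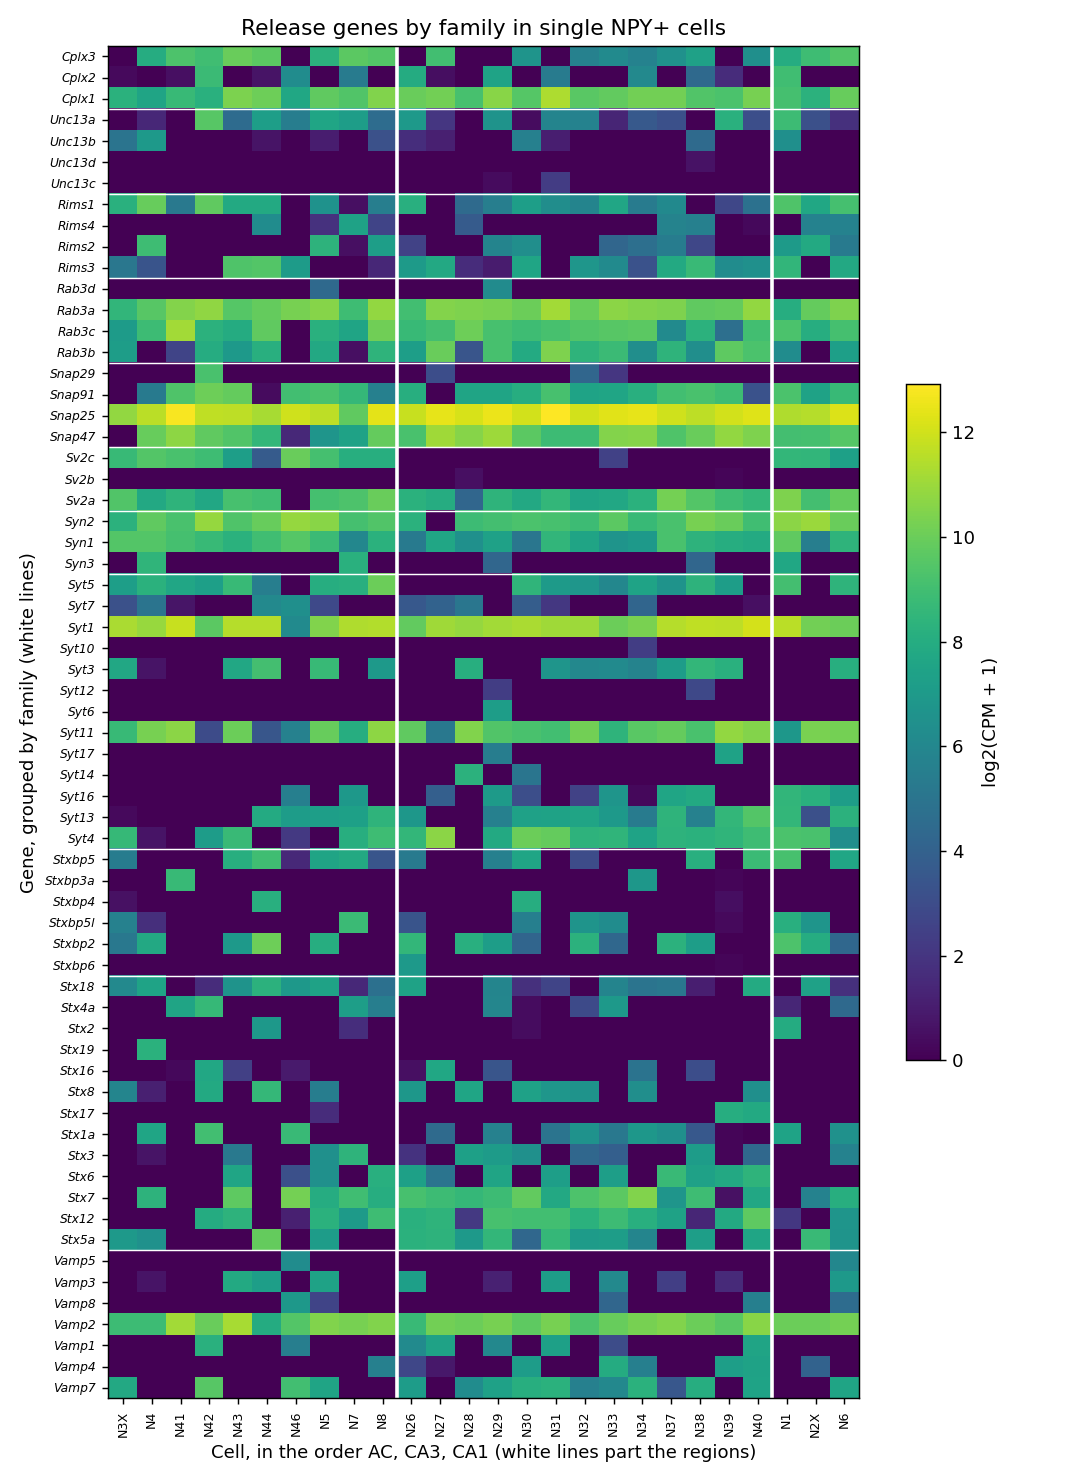
Level of 64 of the release genes with reads, as log2(CPM + 1), in each of the 26 cells (columns, in the order AC, CA3, CA1) and grouped by family (rows). Snap25 and Syt1 are bright in nearly every column, and the Sv2c row is filled in AC and CA1 and empty in 12 of the 13 CA3 cells.

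Among the vesicle membrane proteins, the SV2 family differed most. Sv2c (ENSMUSG00000051111.16, chr13:95954594-96132577, minus strand, GRCm38) was read in all 10 AC cells, at 12.1 CPM in the lowest (N44), 449 in the median and 1002 in the highest (N46). In CA3, 12 of 13 cells had no read and cell N33 had 18 reads, 4.64 CPM. The CA1 cells held 376, 360 and 163 CPM. Every AC and CA1 cell was thus above every CA3 cell. Summed over cells, Sv2c stood at 427 CPM in AC (420 to 434, exact Poisson 95% interval) against 0.368 in CA3 (0.218 to 0.582), and the levels were 10.22 ± 1.86 and 0.31 ± 1.13 (SD over cells), a difference of 9.91. It was the only release gene of the 41 whose AC and CA3 cells did not overlap, which 0.0503% of all genes did. These intervals, like the others given for reads and cells, cover counting error only.

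Outside the selected cells Sv2c was not uniform in AC. Of 9 other AC cells 3 had Sv2c reads: N48 with 9619 (and no read of Gad1, which makes GABA), N51 with 1775 and N52 with 3. N45 and N47, with 5265115 and 6235022 reads in all, had none, though N45 held 10339 reads of Gad1 and N47 held 5703. None of the 8 other CA3 cells had an Sv2c read, among them N36 with 2467435 reads and 40427 of Gad1, while the other 7 had at most 408585 reads and no read of Gad1 or Npy. Over all labelled cells Sv2c was read in 13 of 19 in AC and 1 of 21 in CA3, and the difference was 6.70.

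Sv2a, the SV2 form found at most synapses, was read in 9 of the 10 AC cells (0 in N46, median 526 CPM, highest 991) and in all 13 CA3 cells (18.1 to 1181, median 309). The CA1 cells held 1383, 541 and 927 CPM. The difference was −0.19, and the ranges of the regions overlapped. Sv2b had 1 read in each of 2 CA3 cells and none in AC or CA1. In reads per kilobase of exon, Sv2c made up 35.4% ± 29.8 of the SV2 family per AC cell (SD, n = 10 cells) and 14.5% ± 8.57 in CA1 (n = 3). In CA3 its share was 0.0848% (n = 12 cells with at least 50 family reads, from 1 cell alone). The spread within AC was wide: Sv2c was the larger form in 3 AC cells, took the whole family in N46 and 1.13% of it in N44.

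**Figure D3:**
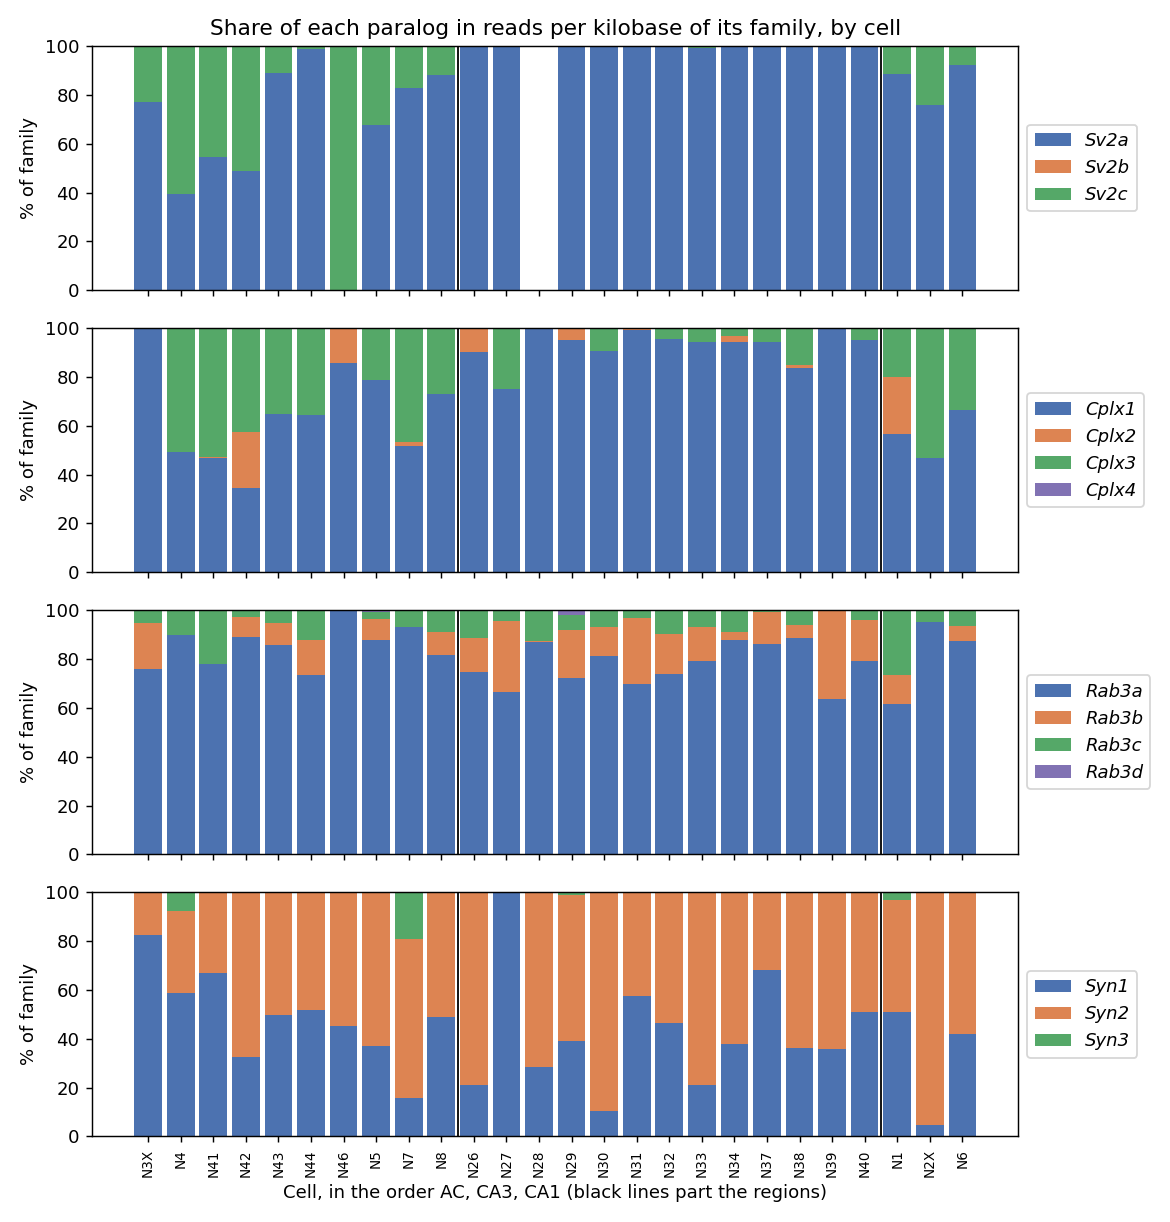
Share of each paralog, in percent of the reads per kilobase of exon of its family, in each of the 26 cells for the SV2, complexin, Rab3 and synapsin families. Cell N28 has no SV2 bar because it held fewer than 50 SV2 reads. The mean Sv2c and Cplx3 shares are 35.4% and 31.2% in AC and 0.0848% and 5.67% in CA3, with AC cells such as N44 (Sv2c, 1.13%) and N3X (Cplx3, 0) that hold little.

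Both main synapsins were higher in AC. Syn1 was read in every cell, at 62.6 to 736 CPM in AC (median 468) and at 33.3 to 593 in CA3 (median 188), with 858, 45.3 and 341 in CA1. The difference was 1.53, larger than the SD over cells in either region (1.14 and 1.22), which among the 41 release genes held otherwise for Sv2c alone. Cell N7 was the lowest in AC, and the other 9 AC cells held 304 CPM or more. Syn2 ran from 318 to 1899 CPM in AC (median 772), and from 0 to 1225 in CA3 (median 539), with 1647, 2000 and 1004 in CA1. Its difference of 1.59 rested in part on cell N27, the only one with no Syn2 read, and was 0.77 without it. Over all labelled cells it was 0.63 for Syn1 and −0.98 for Syn2, and over labelled cells with at least 10 Gad1 reads −0.31 and 0.59. Syn1 and Syn2 split the family about evenly per kilobase, at 48.9% ± 18.5 and 48.4% ± 16 in AC (SD, n = 10 cells) and 42.5% ± 23.4 and 57.4% ± 23.4 in CA3 (SD, n = 13 cells). Syn3 was read in 2 AC, 2 CA3 and 1 CA1 cells, and 14.1% of its exon bases overlap Timp3 on the opposite strand. The strand setting of the counting is not given in the sources used here, so reads of such a pair cannot be told apart.

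Rab3a had the largest share of Rab3 reads per kilobase in every cell. It held 366 to 1845 CPM in AC (median 1089), 510 to 2267 in CA3 (median 1353) and 261, 930 and 1365 in CA1. Its difference was −0.14, and over all labelled cells −1.36, near the median of all genes there (−1.22). Rab3b was read in 8 of the 10 AC cells (0 in N4 and N46, median 134 CPM, highest 339) and in all 13 CA3 cells (9.69 to 1385, median 336). In CA1 it held 78.1, 0 and 154 CPM. The difference was −3.46, within the wide spread of AC (SD 4.45) and above that of CA3 (1.92). 7 of the 13 CA3 cells held less than the highest AC cell, so the ranges overlapped. Its share of the Rab3 family was 6.82% ± 6.69 per AC cell (SD, n = 10 cells) and 15.9% ± 10.2 per CA3 cell (SD, n = 13 cells). Without the 5 cells with glial reads the difference was −1.98. Rab3b shares 9.0% of its exon bases with the opposite-strand gene 8030443G20Rik. Rab3c held a median of 309 CPM in AC (0 in N46) and 541 in CA3 and differed by −0.73. Rab3d was read in 1 AC and 1 CA3 cell.

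Among the calcium sensors, Syt1, which drives fast synchronous release, was the largest synaptotagmin in both regions. It ran from 71.1 (N46) to 3654 CPM in AC (median 2579) and from 889 to 4339 in CA3 (median 2186), with 3069, 1134 and 1050 in CA1, and its difference was −0.25. Over all labelled cells it was 1.24, past the call towards AC. Syt2, another fast sensor, had no read in any of the 26 cells. Syt7, a sensor of slow release, had a median of 3.52 CPM in AC and 0.465 in CA3, with reads in 6 of 10 and 7 of 13 cells.

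Syt5 was higher in AC. It was read in 9 of the 10 AC cells (0 in N46, median 232 CPM, highest 1037) and in 8 of the 13 CA3 cells (median 97.9, highest 356), with 542, 0 and 344 in CA1. The difference of 3.35 did not reach the CA3 spread (SD 4.58), and the cells with reads overlapped. It remained a call under all 13 alternative settings, at 1.56 or more. Of these, the settings of the filter cannot change the difference of a single gene, and centring can only raise one towards AC.

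Syt4, an atypical synaptotagmin of dense-core vesicles, was higher in CA3. It was read in 12 of the 13 CA3 cells (0 in N28, median 350 CPM, highest 1652), and in 7 of the 10 AC cells (median 71.9, highest 486). The CA1 cells held 610, 594 and 82.9 CPM. Over all labelled cells its difference was −2.19. The difference of −4.01 in the selected cells did not reach the AC spread (SD 4.99): 5 AC cells had 3.39 CPM or less and the other 5 had 141 or more. 14.5% of its exon bases overlap Gm26658 on the opposite strand. Its share of synaptotagmin reads per kilobase was 6.94% ± 7.48 in AC (SD, n = 10 cells) and 18.8% ± 15.9 in CA3 (SD, n = 13 cells). Syt13 (−2.78), Syt16 (−2.30) and Syt11 (−1.16), which are counted among the synaptotagmins that do not bind calcium, were also higher in CA3. Syt11 had reads in every cell, at a median of 697 CPM in AC and 794 in CA3, and its call was lost without cell N42 (−0.64), while over all labelled cells the difference was −4.0. Of the 17 synaptotagmins 8 passed the filter, 1 higher in AC and 4 higher in CA3 (12.5% and 50%, near the 16.6% and 46.9% of all genes), with a median of −0.75. Syt6, Syt10, Syt12, Syt14 and Syt17 were read in 1 or 2 CA3 cells and in no AC cell.

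Complexins were split by paralog. Cplx3 (ENSMUSG00000039714.9, chr9:57599992-57606281, minus strand) is best known from ribbon synapses of the retina. It was read in 8 of the 10 AC cells (0 in N3X and N46), with a median of 563 CPM and a highest of 992 (N43). In CA3 it was read in 8 of 13 cells, with a median of 52.7 CPM, and of these only N27, at 522, was above 170. The CA1 cells held 259, 476 and 676 CPM. The 8 AC cells with reads, at 254 CPM or more, stood above all CA3 cells but N27. Summed over cells, Cplx3 stood at 522 CPM in AC (515 to 530, exact Poisson 95% interval) against 75.3 in CA3 (72.9 to 77.7), a ratio of 6.94, and the difference in level was 3.74. It was called in all 13 alternative settings, of which those of the filter cannot change its difference and centring can only raise it. The lowest value was 1.93, over all labelled cells, where 1 of 9 other AC cells and none of 8 other CA3 cells had reads.

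Cplx1, the main complexin of inhibitory neurons, was read in all 26 cells. It ran from 184 to 1417 CPM in AC (median 544), from 575 to 2550 in CA3 (median 989) and was 543, 312 and 985 in CA1, a difference of −0.73. Per kilobase, Cplx3 made up 31.2% ± 19.2 of the complexins in AC (SD, n = 10 cells), 5.67% ± 7.36 in CA3 (n = 13) and 35.6% ± 16.6 in CA1 (n = 3). Cplx1 made up 64.9% ± 20.0, 92.9% ± 6.98 and 56.7% ± 9.67. In 3 of the 10 AC cells and 1 of 3 CA1 cells Cplx3 was the largest complexin, and Cplx1 was in every CA3 cell. Cplx2 was read in 6 of 10 AC and 7 of the 13 CA3 cells, with medians below 1 CPM.

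**Figure D4:**
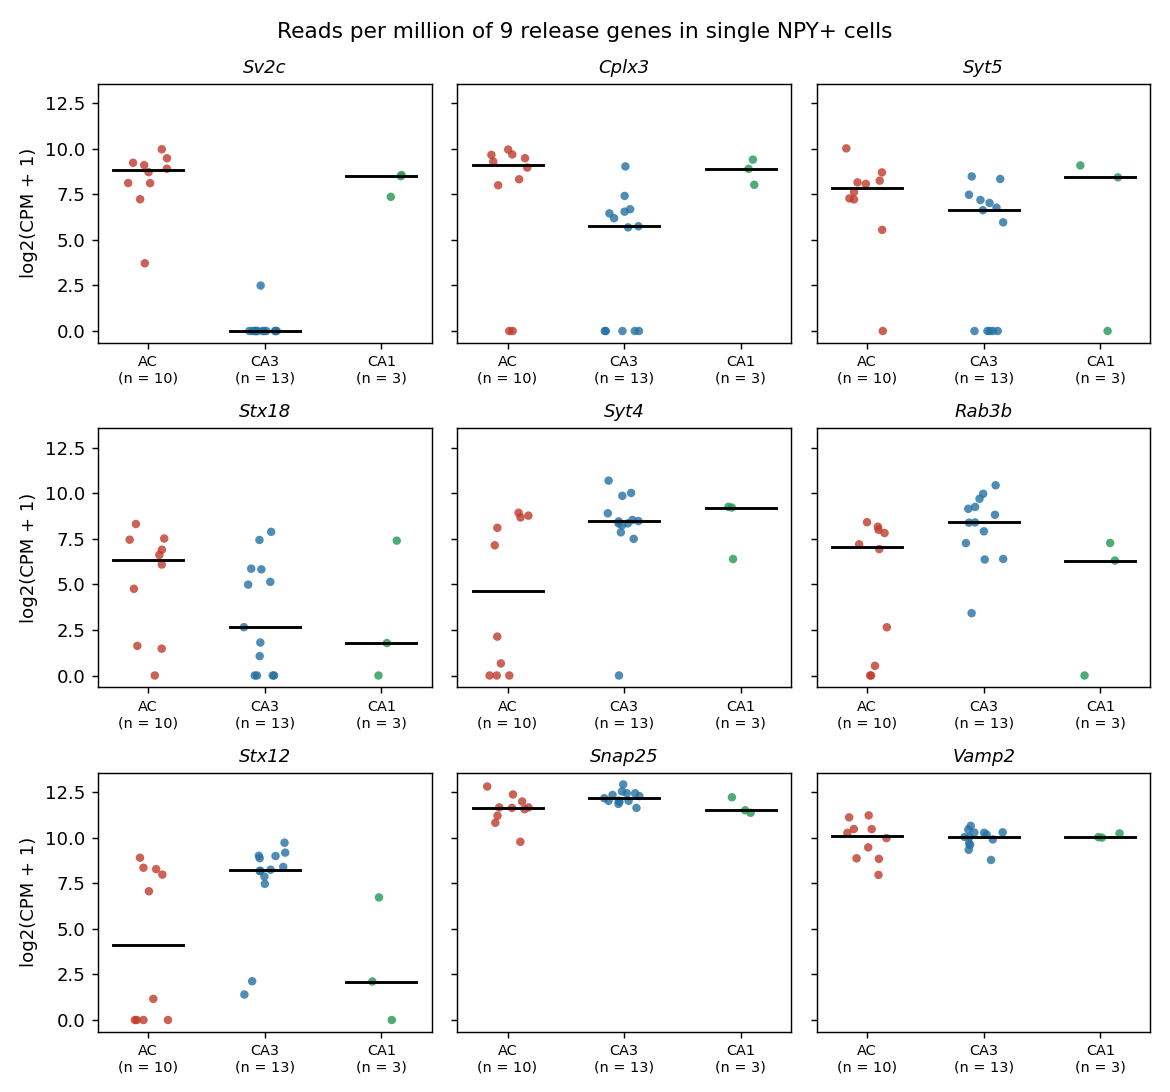
Levels, as log2(CPM + 1), of 9 release genes in each AC (red, n = 10), CA3 (blue, n = 13) and CA1 (green, n = 3) cell, with black bars at the medians and points spread sideways only to be seen. Sv2c separates AC and CA1 from CA3, Cplx3 and Syt5 have more cells at 0 in CA3, Syt4, Rab3b and Stx12 more cells at or near 0 in AC, and Snap25 and Vamp2 cover like ranges.

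Priming factors of the active zone had few reads in many cells. Rims1, the RIM that recruits calcium channels and Munc13, was read in 9 of the 10 AC cells (median 164 CPM, highest 952) and 11 of the 13 CA3 cells (median 45.5, highest 288), with 658, 206 and 558 in CA1. Its difference was 1.37, and 0.42 without the 5 cells with glial reads. The call was also lost when any 1 of 4 cells was left out, at the lowest 0.84 without N38. Unc13a, the main Munc13 of forebrain synapses, was read in 8 of the 10 AC cells (median 33.4 CPM, highest 761 in N42) and 11 of the 13 CA3 cells (median 7.97, highest 295). Its difference of 1.34 was 0.64 without N42 and 1.05 without the 5 cells with glial reads. Rims3 was higher in CA3 by level (−2.33), with reads in 6 of 10 AC and 12 of the 13 CA3 cells. Summed over cells it was not, at 146 CPM in AC and 116 in CA3, of which N44 gave 46.9% of the AC reads. Unc13b had reads in 5 cells of each region, and Unc13c and Unc13d in 2 and 1 CA3 cells.

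Of the SNAREs of the release site itself, Snap25 and Vamp2 were read in every cell. Snap25 was the most read release gene, at 875 to 7179 CPM in AC (median 3213), 3182 to 7777 in CA3 (median 4597) and 2644, 2907 and 4773 in CA1, a difference of −0.48 that turned to 0.69 over all labelled cells. Vamp2, the vesicle SNARE, ran from 248 to 2394 CPM in AC (median 1119), from 439 to 1607 in CA3 (median 1053) and from 1027 to 1206 in CA1, a difference of 0.08. Over all labelled cells, though, the Vamp2 difference was −2.34, with reads in 14 of 19 AC and 21 of 21 CA3 cells. The AC cells without Vamp2 reads were N48, N49, N50, N51 and N52, and only N51 of these had Gad1 reads. They had 738 (N49) to 1814 (N48) detected genes, beside 3163 or more in the selected AC cells. Vamp1 was read in 2 of 10 AC and 6 of the 13 CA3 cells. Stx1a was read in 3 of the 10 AC cells, at up to 516 CPM in N42, and in 9 of the 13 CA3 cells, at up to 113. Its call towards CA3 (−1.25) turned to 1.62 in summed reads and 0.70 over all labelled cells. Without the cells with glial reads, N42 among them, the difference was −4.67.

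Stxbp5 (tomosyn-1), which binds syntaxin in place of VAMP, was higher in AC by 1.74 (3.31 over all labelled cells), with reads in 7 of 10 AC and 6 of the 13 CA3 cells. Stxbp3a, Stxbp4, Stxbp5l and Stxbp6 did not pass the filter.

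The SNAREs of endosomes, the Golgi and the endoplasmic reticulum gave 6 of the 14 calls towards CA3. Of 14 such genes 9 passed the filter, of which 6 were higher in CA3 and 1 in AC (66.7% and 11.1%, beside 46.9% and 16.6% of all genes), with a median of −3.09 beside −0.84 for all genes. The 6 were Stx5a (−3.96), Stx12 (−3.94), Stx7 (−3.46), Vamp7 (−3.19), Stx6 (−3.09) and Snap47 (−2.71). Stx12, an endosomal syntaxin, was read in all 13 CA3 cells (1.64 to 847 CPM, median 303) and in 6 of the 10 AC cells (median 67.0, highest 477), with 3.32, 0 and 105 CPM in CA1. Stx7, of late endosomes, was read in all 13 CA3 cells (median 458 CPM) and in 6 of the 10 AC cells (median 257), where its highest AC cell, N46, held 1197.

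Much of these differences lay in how many cells had reads. Stx5a, which acts between the endoplasmic reticulum and the Golgi, was read in 4 of 10 AC and 11 of the 13 CA3 cells, yet summed over cells it stood at 117 CPM in AC and 146 in CA3. Vamp7 was read in 4 of 10 and 11 of 13 cells, and its summed level was 170 CPM in AC and 135 in CA3. Stx6 was read in 4 of 10 and 9 of 13 cells and stood at 75.1 and 160 CPM. Snap47, an unusual SNAP25 relative, had the narrowest CA3 spread of these 6 genes (SD 0.90): all 13 CA3 cells held 468 to 2194 CPM (median 1351), while AC ran from 0 in N3X to 1696 (median 526) and CA1 held 540, 543 and 720. It shares 11.6% of its exon bases with Jmjd4 on the opposite strand, which had no read in AC and was read in 1 CA3 cell.

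Stx18, a syntaxin of the endoplasmic reticulum, was the one gene of this group higher in AC, by 2.28. It was read in 9 of the 10 AC cells (median 82.1 CPM, highest 317) and in 9 of the 13 CA3 cells (median 5.29, highest 235), with 0, 168 and 2.44 in CA1. The difference was 0.40 over all labelled cells. 32.3% of its exon bases are shared with the opposite-strand genes Nsg1 and Gm42858. Nsg1 was read in 7 of the 10 AC cells (median 79.2 CPM) and in 12 of the 13 CA3 cells (median 134). All 7 of these AC cells also had Stx18 reads, and all 9 CA3 cells with Stx18 reads also had Nsg1 reads. The part of shared reads in the Stx18 difference was not tested, and Gm42858 was not examined.

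Most of the remaining release genes were not called. Of those that passed the filter, Snap91 (AP180), an adaptor of clathrin-mediated endocytosis, held medians of 452 CPM in AC and 261 in CA3 and differed by −0.43. Rims2 (−0.23), Syt3 (−0.35), Vamp3 (0.28), Stxbp2 (−0.69), Unc13b (0.75) and Stx8 (−0.91) were read in 4 to 6 AC and 5 to 8 CA3 cells. Stx3, a plasma membrane syntaxin, was called towards CA3 (−1.69) with 4 AC and 9 CA3 cells read, and stood at 30.9 CPM in AC and 36.5 in CA3 in summed reads. The 25 genes with reads that did not pass were each read in at most 4 AC and 7 CA3 cells. The widest gap among them was in Vamp4, an endosomal VAMP, with 1 AC cell at 48.7 CPM and 7 CA3 cells at up to 246. In AC several rested on 1 cell: Stx19 (N4, 300 CPM), Vamp5 (N46, 77.6 CPM) and Snap29 (N42, 597 CPM) had reads in 1 AC cell each. Snap29 was also read in 3 CA3 cells.

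The partners of the machinery, a list of 48 genes for SNARE recycling, active zone scaffolds, vesicle proteins, Rab3 regulators and endocytosis, were called at about the rate of all genes. Of the 37 that passed the filter, 4 were higher in AC and 16 in CA3 (10.8% and 43.2%, beside 16.6% and 46.9% of all genes), with a median of −0.80, close to the −0.84 of all genes. Those higher in AC were Madd (2.13) and Rab3gap2 (1.98), which regulate the nucleotide state of Rab3, Sncb (1.29) and Ppfia3 (1.21). Rab3gap1, the other subunit of the Rab3 GTPase-activating complex, was called towards CA3, at the limit of the call (−1.0). The largest differences towards CA3 were Rab27b (−5.41), a secretory Rab read in 4 of 10 AC and 12 of the 13 CA3 cells, and Erc1 (−5.19), an active zone scaffold. Nsf, the ATPase that takes SNARE complexes apart, had like medians, 783 CPM in AC and 762 in CA3, and differed by 0.30.

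In the CA1 cells, which share the hippocampus with CA3, 46 release genes were read in at least 1 cell and 23 in all 3. Sv2c and Cplx3 were read in all 3, within the AC range, and the Cplx3 share ran from 20.1% to 53.1% in CA1 and up to 25% in CA3. Syt16 was read in all 3 CA1 cells at 148 to 369 CPM, in 2 of the 10 AC cells and in 8 of the 13 CA3 cells (median 4.79). Stx6, Stx8 and Syt7 had no read in CA1, where 3 reads would be 0.596 CPM summed over the cells. With 3 cells of 601781 reads or more, a gene unread in CA1 may be absent or may have been missed, which was not tested.

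Per kilobase, Rab3a and Snap25 were the leading pair in AC, CA3 and CA1. The median level in AC was highest for Rab3a (489 RPKM, reads per kilobase of exon per 1000000 reads), Snap25 (473), Syt1 (309) and Vamp2 (294). In CA3 it was highest for Snap25 (677), Rab3a (608), Snap47 (510) and Cplx1 (452). In CA1 it was highest for Snap25 (428), Rab3a (418) and Vamp2 (274). Cplx3 stood at 191 RPKM in AC and 17.8 in CA3, and Snap47 at 199 and 510.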

How the data were processed

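Poly(A) RNA of single cells was amplified and made into Nextera XT libraries. Raw read counts were deposited by the authors as 1 table, 47 columns wide, with 22800 gene symbols (7613 without a read). The submitters' processing notes name Trimmomatic, STAR and featureCounts with GRCm38, while the study's methods name HTSeq for counting and average the counts of identifiers with one symbol, so the counter is not settled. PCR reads carry no molecular identifiers.

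The members, the lists and the cells compared were chosen with earlier results of these data known. Each cell is a column, each region was taken as 1 sample, and no model was fitted. Counts of the 23 cells were divided by size factors that scran 1.30.0 (computeSumFactors, pools of 10 and 20 cells, R 4.3.3) gave, with a pseudocount of 1. CPM is reads per 1000000 reads on genes. Intervals are exact Poisson or Clopper-Pearson at 95%, for counting error only. Exon lengths came from GENCODE release M21 (71 of 72 members matched; Stxbp3a was left out of family shares), and shares used cells with at least 50 family reads. Full values are given for members past a difference of 1 and for 27 canonical isoforms. Alternatives were TMM of edgeR 4.0.16, DESeq2 1.42.0 size factors, library size, pseudocounts of 10 and 0.1, summed CPM, other filters, centring, all labelled cells, thinning to 1715012 reads (seed 1) and each cell left out. Tables were made with pandas 2.3.3 and numpy 2.4.6, intervals with scipy 1.17.1 and figures with matplotlib 3.10.9, in Python 3.11.15. Some members and partners are counted in the totals and lists but are not reported here by name.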

Additional observations from a re-analysis of the deposited data

Results flagged for a closer look

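In the 10 AC cells, 38 release genes were examined for a cell far from the rest, by the gap to the next cell as a part of the range. A gap past the limit was found for 6 genes, always for the lowest cell. That limit is set for normal values, which levels with unread cells are not, and the genes share the same 10 cells. No rate by chance is therefore given. Cell N46 was the lowest for 4 of them: Rab3c, Sv2a and Syt5 had no read there (a level of 0.00), and Syt1 had 231 reads (a level of 8.23). In N46 the highest Sv2c level of AC, 1002 CPM, stood beside the missing Sv2a. Cell N44 was the lowest for Sv2c, with 40 reads and a level of 5.58. Cell N7 was the lowest for Syn1, with 141 reads and a level of 7.72.

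Release genes were also read in the columns left out of all comparisons. The 2 dentate gyrus cells held reads on 8 (N11, 675 reads) and 12 release genes (N12, 807 reads), and the NPY-negative CA3 cell (N16) on 14 (1262 reads). None of these 3 cells had a read of Sv2c, Cplx3, Cplx1, Rab3b, Gad1 or Npy, and their libraries held 89297, 190573 and 291745 reads.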

How the results depend on the processing

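The count of release genes higher in AC was 8 to 14 over the 13 alternative settings, and that higher in CA3 was 11 to 20 but for summed CPM, where it was 5. The 14 came with the other filters, which 66 (no filter) and 61 (mean of at least 10 reads) release genes passed in place of 41. The share of all genes moved too, from 7.71% to 29.3% higher in AC and from 23.1% to 55.6% higher in CA3 (7.71% and 55.6% over all labelled cells). Leaving out 1 cell gave 8 to 12 higher in AC and 13 to 18 higher in CA3, beside 15.5% to 18.9% and 44.6% to 48.8% of all genes. The median was then −0.73 to −0.17 for the release genes and −0.80 to −0.42 for the partners. In summed CPM the release gene median was 0.37. With 1 cell left out the Sv2c share was 28.3% to 39.2% in AC and 0 to 0.0925% in CA3, the Cplx3 share 28.8% to 34.7% and 4.05% to 6.14%, and the Rab3b share 5.46% to 7.58% and 14.2% to 17.2%. Without division by length the shares in AC and CA3 were 47.3% and 0.175% for Sv2c, 35.7% and 7.25% for Cplx3 and 7.96% and 18.9% for Rab3b, which was 13.1% in CA3 over all labelled cells. Leaving out a CA1 cell left 40 to 45 genes read there. Differences that changed sign were Rims3 (0.33), Stx1a (1.62) and Vamp7 (0.33) in summed CPM, Stx1a (0.70) and Syn2 (−0.98) over all labelled cells, and Stx1a (0.93) and Syn1 (−0.31) over labelled cells with Gad1 reads. The cause was not tested. Of 24 called members, 7 stayed called in all 13 settings (Cplx3, Rab3b, Stx12, Stx6, Sv2c, Syt4 and Syt5) and 18 without any 1 cell. The settings that change only the filter leave the difference of a single gene as it was, and centring shifts all differences towards AC, so these could not end a call towards AC. The settings without glial cells and with Gad1 cells were added after seeing the data. No paired analysis was possible because no cell is tied to a mouse and no test was made. Thinning moved the mean number of release genes read from 32.8 to 32.4 in AC and from 37 to 36 in CA3. Why many genes had reads in few cells was not tested.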
